A study of Mus musculus with 12 samples.

Results

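The data described here are 6 of the 12 RNA-seq libraries of a study of TAZ in mpkCCDc11, an established mouse line of kidney cortical collecting duct epithelium. They are 3 libraries of cells given an siRNA against TAZ and 3 of cells given a control siRNA, all treated with vehicle, and they were chosen by these labels alone. TAZ siRNA was compared with control siRNA across all expressed genes. The series asks how TAZ bears on the abundance of aquaporin-2, the water channel that vasopressin controls. Its other 6 libraries carry the same siRNAs with dDAVP, a synthetic vasopressin analogue, at 1e-09 M, and are used below only as separate estimates of the siRNA effect. The labels list several dDAVP exposure times for the series and assign none to a library.

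The control libraries are labelled WT and the TAZ siRNA libraries TAZ knockdown. Per the labels' protocols, cells of every group grew on permeable filters and then in medium without serum or hormones before treatment. All groups come from a single cell line, the siRNA sequences are not given in the sources used here, and a knockdown leaves part of the transcript in place. Whether replicate libraries stem from separate cultures is not stated, and p-values therefore reflect only how much these libraries varied, part of which may be technical.

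TAZ, encoded by Wwtr1, is a transcriptional coactivator that binds TEAD factors. With its paralogue YAP it is held in the cytoplasm and degraded when the Hippo kinases LATS1 and LATS2 phosphorylate it, and in the nucleus it drives genes of growth, adhesion and matrix. The collecting duct holds principal cells, which reabsorb water and sodium, and intercalated cells, which move acid and base. Wwtr1 is the TAZ of this study. The gene whose symbol is Taz encodes tafazzin, a mitochondrial enzyme of cardiolipin remodelling, and is a different gene.

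The 6 vehicle libraries held between 47072921 and 61725339 estimated counts, which were scaled to CPM (counts relative to the scaled library total). Of 45777 genes in the table, 23108 had a count in a vehicle library and 15932 were tested. A count of 3 corresponded to between 0.0484 and 0.0637 CPM. TAZ siRNA replicate 1 lay nearer to the controls than the other TAZ siRNA libraries on the second principal component of the 12 libraries, at -1.12 against -5.50 and -7.73, with controls from 9.00 to 11.2. It also differed most from a library of its own group, with a chi-square per degree of freedom of 13.6 against replicate 3, where the other pairs within a group ran from 4.89 to 7.92. Cell line identity was checked on marker lists. Among principal cell genes, the sodium channel subunit Scnn1a stood at 128, 128 and 129 CPM in the controls and the V2 vasopressin receptor Avpr2 at 29.8, 27.2 and 31.7 CPM, whereas Aqp2 was near its detection limit without dDAVP. Of 22 principal cell genes, 2 (Aqp4 and Kcnj1) were too low to test. Among 15 markers of other nephron segments, 8 were at 0 in all 6 vehicle libraries. That list still summed to between 273.7 and 284.8 CPM in the controls, with Lrp2, given below, among its expressed members. Of 16 fibroblast, endothelial and immune markers, 7 were at 0 in all 6 libraries. The list of these 16 summed to between 5.08 and 6.37 CPM in any of them.

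The targeted transcript was lower in every TAZ siRNA library. Wwtr1 (chr3:57455644-57575910, mm10) stood at 179, 186 and 177 CPM in the control libraries and 119, 114 and 116 CPM in the TAZ siRNA libraries. The groups did not overlap, and the ratio of means was 0.645, so about that share of the transcript remained. The log2 fold change was -0.63 ± 0.05 (SE, 3 libraries a group), with an adjusted p of 4e-06 by the quasi-likelihood F test of edgeR with Benjamini-Hochberg adjustment, which gives every adjusted p below unless another tool is named. Yap1, the paralogue, stood at 171, 175 and 167 CPM in the control libraries and 171, 169.7 and 169 CPM in the TAZ siRNA libraries, and its log2 fold change of -0.0087 ± 0.031 missed the threshold (adjusted p = 0.92). Taz, the tafazzin gene, also missed it, at -0.014 ± 0.062 (adjusted p = 0.936).

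Across all genes, 1004 passed an adjusted p of 0.05 between the siRNAs. Of the genes tested, 508 (3.19%) were higher and 496 (3.11%) were lower with TAZ siRNA. Most changes were small, with a median log2 fold change of 0.239 among the higher genes and -0.245 among the lower genes. Only 16 rose and 22 fell by at least 2-fold. The median of all tested genes was 0.0017. These counts depended on the libraries: without control replicates 1 or 3, or TAZ siRNA replicates 2 or 3, the higher genes numbered 232, 292, 183 and 221 and the lower genes 272, 286, 227 and 290. Without TAZ siRNA replicate 1, 819 genes were lower. A fit of the 6 vehicle libraries alone called 381 genes higher and 396 lower.

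**Figure D1:**
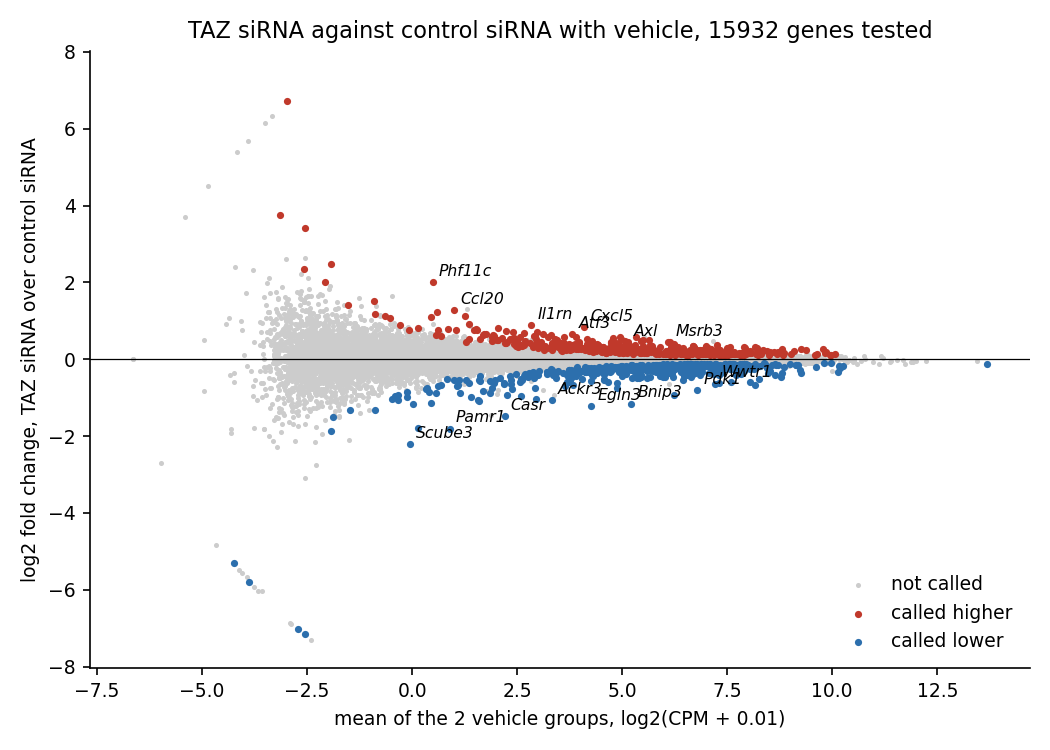
Log2 fold change of TAZ siRNA over control siRNA with vehicle (vertical axis) against the mean level of the 2 vehicle groups on a log2 scale (horizontal axis), 1 point per gene tested. The 508 higher genes are red, the 496 lower genes blue and the rest grey. Labelled genes are among those named in the text, and most coloured points lie within 1 log2 unit of zero.

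Scube3 had the steepest called fall among genes of at least 1 CPM, and Egln3 and Bnip3, which were also among the 15 steepest by the naming rule, are described with the genes of low oxygen. Scube3, a secreted and cell-surface signalling protein, stood at 1.59, 1.53 and 1.56 CPM in the control libraries and 0.339, 0.407 and 0.258 CPM in the TAZ siRNA libraries, a log2 fold change of -2.22 ± 0.27 (adjusted p = 0.000148). Pamr1, which encodes a secreted protein with a peptidase-like domain, stood at 2.39, 3.48 and 2.76 CPM in the control libraries and 0.597, 0.976 and 0.887 CPM in the TAZ siRNA libraries, a change of -1.80 ± 0.20 (adjusted p = 5.74e-05). The naming rule admitted only genes whose groups did not overlap. The 3 TAZ siRNA libraries ran from 0.258 to 0.407 CPM for Scube3 and from 0.597 to 0.976 CPM for Pamr1. The amino acid transporter Slc6a14 fell by 1.79, the calcium-sensing receptor Casr by 1.47, the scavenging chemokine receptor Ackr3 by 1.07, the glutamate receptor subunit Grin1 by 1.06, and Rnf186, Depp1 and Setbp1 by 1.08, 1.04 and 0.95 on the log2 scale. These 9 genes kept their call in all 14 alternative settings. Krt23, an epithelial keratin (-1.16 ± 0.28), lost its call in the fit of the 6 vehicle libraries (0.0549) and in fits without control replicate 2 (0.0897) or TAZ siRNA replicate 3 (0.0868). The same was true of the adhesion receptor Adgrf1 (-0.97 ± 0.23) in limma-voom (0.0511) and in fits without control replicates 2 (0.0612), 3 (0.0555) or TAZ siRNA replicate 2 (0.105). Unc93b1, a chaperone of endosomal Toll-like receptors (-0.93 ± 0.25), lost its call in limma-voom (0.0586) and in fits without control replicates 1 (0.121), 2 (0.0887), 3 (0.0573) or TAZ siRNA replicates 1 (0.0807), 3 (0.115). Gsdmc2 (-0.97 ± 0.24) belongs to a family of near-identical genes, so its counts are uncertain, and it lost its call in limma-voom (0.0914) and in fits without control replicates 1 (0.106), 3 (0.0679) or TAZ siRNA replicates 2 (0.0718), 3 (0.0983).

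Phf11c had the steepest called rise at this level, and Ccl20, Il1rn and Cxcl5, also among the 15 steepest, are described with the cytokine genes. Phf11c rose by 2.01 ± 0.37, but it too belongs to a family of similar genes and its value is uncertain. Cdsn, which encodes the adhesion protein corneodesmosin, stood at 0.62, 1.13 and 0.945 CPM in the control libraries and 1.74, 2.47 and 2.07 CPM in the TAZ siRNA libraries. Its rise of 1.23 ± 0.26 (adjusted p = 0.00941) lost its call in fits without control replicate 1 (0.0603) or TAZ siRNA replicate 2 (0.068). Sema7a, a membrane-anchored semaphorin, rose by 0.83 and Anxa8, an annexin, by 0.80, both in every setting. The interleukin receptor gene Il1rl1 (1.13 ± 0.25) lost its call in the fit of the 6 vehicle libraries (0.0551) and limma-voom (0.0732) and in fits without control replicate 3 (0.0534) or TAZ siRNA replicate 2 (0.0738). Vcam1, a leukocyte adhesion molecule (1.11 ± 0.24), lost its call in fits without control replicates 1 (0.0586), 3 (0.0599) or TAZ siRNA replicate 2 (0.0809), and Il18rap, a subunit of the interleukin-18 receptor (0.91 ± 0.22), in limma-voom (0.0573) and in fits without control replicates 1 (0.0812), 2 (0.065) or TAZ siRNA replicate 2 (0.128). Ddit4l (0.90 ± 0.25) lost its call in the fit of the 6 vehicle libraries (0.0802) and in fits without control replicates 2 (0.122), 3 (0.157) or TAZ siRNA replicates 1 (0.0832), 2 (0.0572), 3 (0.126), and Phyhd1 (0.83 ± 0.20) in the fit of the 6 vehicle libraries (0.0517) and in fits without control replicates 1 (0.101), 2 (0.0799) or TAZ siRNA replicates 2 (0.0808), 3 (0.0962). Btn1a1 (0.80 ± 0.20) lost its call in fits without control replicates 1 (0.0579), 3 (0.103) or TAZ siRNA replicates 2 (0.115), 3 (0.0863). Flt4, a receptor of vascular growth factors (0.76 ± 0.22), sat at the threshold and lost its call in the fit with RLE size factors (0.0505), limma-voom (0.0617) and the fit with no low-count filter (0.0541) and in fits without control replicates 1 (0.184), 2 (0.114), 3 (0.0876) or TAZ siRNA replicates 2 (0.165), 3 (0.159). Aim2, a sensor of cytosolic DNA (0.76 ± 0.19), lost its call in fits without control replicates 1 (0.093), 3 (0.069) or TAZ siRNA replicates 2 (0.096), 3 (0.0583). Apart from Ccl20, Il1rn and Cxcl5, none of the genes named in this paragraph reached 6 CPM in a library.

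Among abundant genes (at least 50 CPM), the smallest adjusted p-values belonged to modest changes with tight replicates. Msrb3, a methionine sulfoxide reductase, rose from 59, 59.8 and 59.4 to 81.4, 82.4 and 78.5 CPM, a change of 0.44 ± 0.036 (adjusted p = 4e-06). The latent TGF-beta binding protein Ltbp4 (0.36 ± 0.04), the cell-surface glycoprotein Msln (0.34 ± 0.044), the motor protein Myo1c (0.29 ± 0.038), and Ripor1, Spaca6 and Chrnb1 (0.30 ± 0.035, 0.51 ± 0.065 and 0.33 ± 0.043) also rose. In the other direction, the pro-apoptotic BH3 gene Bmf went from 236, 233 and 239.8 to 187, 176 and 173 CPM (-0.40 ± 0.038), the AP-1 subunit Jun from 179, 184 and 181 to 142, 137 and 127 CPM (-0.42 ± 0.043), and the linker histone H1f0 from 680.4, 641 and 652 to 555, 536 and 544 CPM (-0.27 ± 0.032). Nrep (-0.43 ± 0.044) and the transcriptional repressor Hbp1 (-0.35 ± 0.037) fell as well. None of these groups overlapped, and every gene in this paragraph kept its call in all 14 alternative settings.

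Genes known as YAP and TAZ targets did not move in a single direction. Of 21 tested, 5 rose and 2 fell, where 3.19% of all genes tested were higher and 3.11% lower. The list's median log2 fold change was -0.014, against 0.0017 for all genes. The receptor tyrosine kinase gene Axl stood at 27.1, 32.2 and 29.7 CPM in the control libraries and 35.3, 42.3 and 44 CPM in the TAZ siRNA libraries, so it rose by 0.45 (adjusted p = 0.00216) without overlap. Dock5 rose by 0.29, the membrane repair gene Myof by 0.22 and the Hippo kinase gene Lats2 by 0.16. Ankrd1, a widely used reporter gene of YAP and TAZ, stood at 24.6, 28 and 24.4 CPM in the control libraries and 28.5, 34 and 33 CPM in the TAZ siRNA libraries, a change of 0.31 ± 0.07 (adjusted p = 0.0126), and lost its call in fits without control replicates 1 (0.0727), 3 (0.068) or TAZ siRNA replicates 2 (0.101), 3 (0.0684). The growth factor gene Tgfb2 went the other way, from 15.7, 16.3 and 16.7 to 11.3, 10.8 and 10.5 CPM (-0.58 ± 0.094, adjusted p = 0.00135). Rbms3, an RNA-binding protein gene, fell by 0.24 but lost its call in fits without control replicates 1 (0.11), 2 (0.087), 3 (0.0536) or TAZ siRNA replicates 2 (0.117), 3 (0.105). The matricellular genes Ccn1 and Ccn2, both standard reporters, had log2 fold changes of -0.014 ± 0.11 and 0.012 ± 0.052 (adjusted p = 0.97 and 0.937), and their sign turned when single libraries were left out. Amotl2 (-0.098 ± 0.034) and Ajuba (0.065 ± 0.033) missed the threshold too, although Amotl2 passed it with DESeq2 (0.0479) and without TAZ siRNA replicate 3 (0.0469). The falls of the list numbered 1 without any 1 of control replicates 1, 2 or 3 or TAZ siRNA replicate 2.

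**Figure D2:**
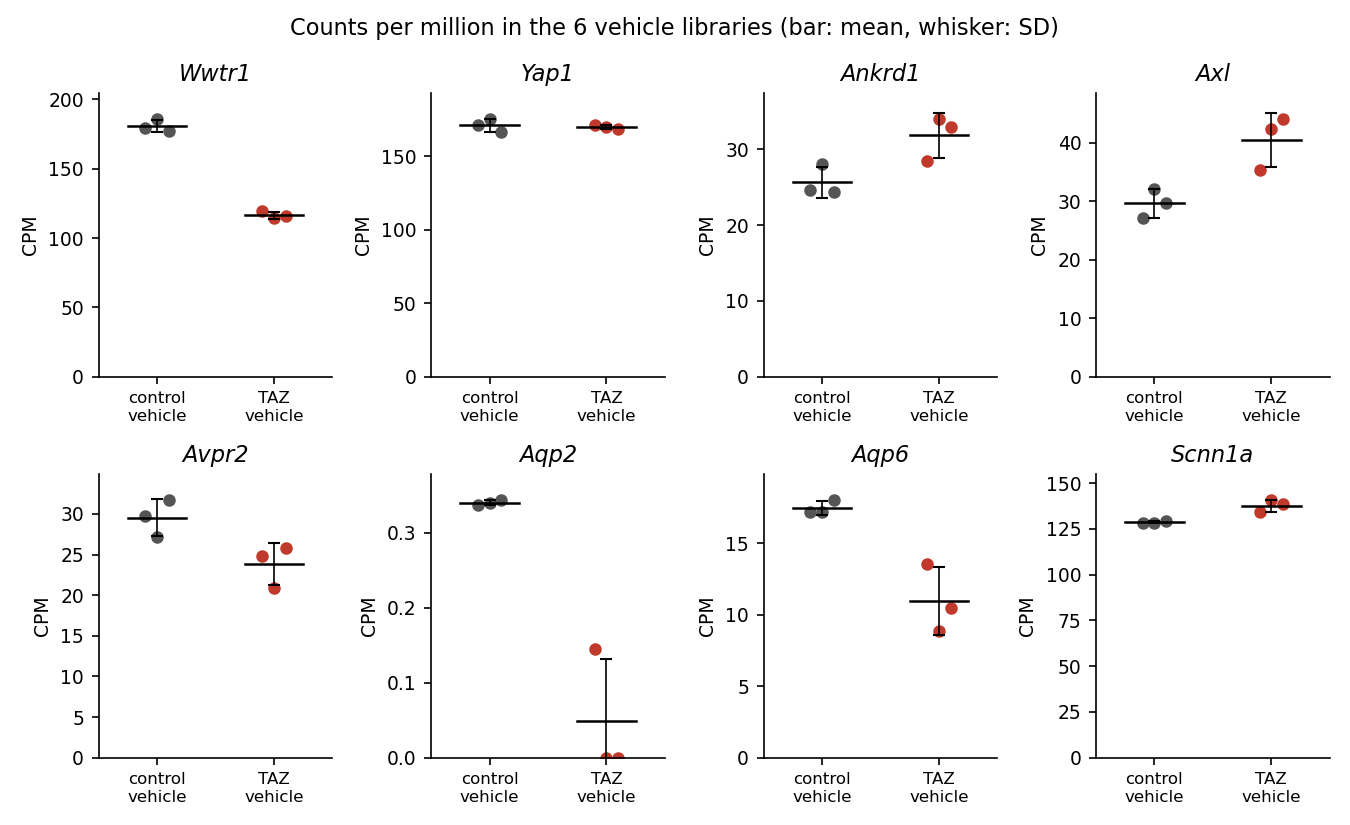
CPM (vertical axis, from 0) of 8 genes in the 3 control siRNA and 3 TAZ siRNA vehicle libraries, each point a library, with the mean as a bar and the SD as a whisker. Wwtr1 is lower in every TAZ siRNA library, Yap1 is level, Ankrd1 and Axl are higher, and Avpr2, Aqp2 and Aqp6 are lower.

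Of 26 Hippo pathway components, 2 rose and 1, Wwtr1 itself, fell, against 3.19% higher and 3.11% lower of all genes tested. Vgll3, a TEAD cofactor, rose from 30.2, 30.7 and 30.1 to 38.7, 40.6 and 39.9 CPM (0.39 ± 0.051, adjusted p = 0.00027). Frmd6, an upstream scaffold, rose by 0.21 but lost its call in fits without control replicates 1 (0.0664), 2 (0.055), 3 (0.061) or TAZ siRNA replicates 2 (0.109), 3 (0.112). The TEAD genes Tead1 (-0.096 ± 0.041) and Tead4 (0.089 ± 0.057) and the TEAD cofactor gene Vgll4 (-0.14 ± 0.043) did not pass the test, although Vgll4 passed it with DESeq2 (0.0244) and with a stricter low-count filter (0.0451). The rises of the list numbered 1 without any 1 library other than TAZ siRNA replicate 1.

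The GGAATG motif that TEAD factors bind (searched on both strands, so also as CATTCC) was present in the promoters of 8 of 15 targets with a RefSeq entry (53.3%), against 15% of the 11340 tested genes with a promoter. A promoter here runs from 250 bases before to 50 bases after a start site, GRCm38.p6, and a gene counts if any of its starts has the motif. The share was 18.4% among all genes that rose and 14.4% among all that fell. The list was compiled from known targets, so its own share does not bear on the siRNA effect. The 250 bases before the start of Ankrd1 (chr19:36119845-36120094, minus strand) and Axl (chr7:25788734-25788983, minus strand) are printed 5′ to 3′ because both genes rose and hold the motif, in capitals.
Ankrd1: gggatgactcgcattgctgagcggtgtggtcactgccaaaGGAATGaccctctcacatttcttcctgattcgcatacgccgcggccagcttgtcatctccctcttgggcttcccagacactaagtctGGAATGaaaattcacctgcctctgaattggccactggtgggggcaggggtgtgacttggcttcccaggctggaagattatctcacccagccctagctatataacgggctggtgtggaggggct
Axl: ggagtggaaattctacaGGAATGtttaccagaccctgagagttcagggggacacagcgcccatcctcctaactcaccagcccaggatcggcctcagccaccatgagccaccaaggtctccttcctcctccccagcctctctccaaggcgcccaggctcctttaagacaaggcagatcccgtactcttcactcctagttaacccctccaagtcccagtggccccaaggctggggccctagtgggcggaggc
The same stretch of Tgfb2, which fell, held no match, and Dock5 is named only. A match shows that these letters are present and says nothing of binding.

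The list with the most called members held glycolysis and hypoxia genes, which include many targets of the hypoxia-inducible factors HIF-1 and HIF-2. Of 31 tested, 24 fell and none rose (the test's background was 3.11% lower and 3.19% higher), and the median log2 fold change was -0.435 against 0.0017 for all genes. Summed over the list, the control libraries held between 6115 and 6947 CPM and the TAZ siRNA libraries between 5026 and 5161 CPM, so the ranges did not overlap. Leaving out control replicate 3 or TAZ siRNA replicates 2 or 3 left 20, 21 and 21 of them called. The list is 1 of 30 and was singled out after the counts of all were seen.

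The fall ran along the glycolytic route from glucose entry to lactate. Slc2a1, the glucose transporter, stood at 51.6, 57.4 and 66.2 CPM in the control libraries and 43.1, 41.3 and 43.5 CPM in the TAZ siRNA libraries (-0.45 ± 0.088). Pfkl, a phosphofructokinase that catalyses the committed step, stood at 326, 356 and 374 CPM in the control libraries and 230.0, 213 and 221 CPM in the TAZ siRNA libraries, a change of -0.67 ± 0.062 (adjusted p = 2.48e-05). Ldha, the lactate dehydrogenase subunit that makes lactate, stood at 295, 306 and 346 CPM in the control libraries and 208, 215 and 212 CPM in the TAZ siRNA libraries, a change of -0.58 ± 0.055 (adjusted p = 2.48e-05). In all 3 genes each TAZ siRNA library lay below each control library. The intermediate steps moved alike: Gpi1 (-0.35 ± 0.054), Pfkp (-0.46 ± 0.057), Aldoa (-0.52 ± 0.064), Aldoc (-0.51 ± 0.08), Tpi1 (-0.46 ± 0.058), Gapdh (-0.37 ± 0.053), Pgk1 (-0.60 ± 0.074), Pgam1 (-0.26 ± 0.045) and Eno1 (-0.35 ± 0.056) all fell in every alternative setting. Pfkfb3, which makes the activator of phosphofructokinase, fell by 0.62. Hexokinase 2 (Hk2, -0.29 ± 0.064) lost its call in fits without control replicate 3 (0.0587) or TAZ siRNA replicate 3 (0.0542), and pyruvate kinase (Pkm, -0.19 ± 0.045) in fits without control replicate 3 (0.0961) or TAZ siRNA replicate 2 (0.0796). Hk1 (0.026 ± 0.032), Pfkfb4 (-0.025 ± 0.085) and Eno2 (-0.12 ± 0.11) were not called.

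Other genes that respond to low oxygen fell too, several of them by more. Bnip3, a mitophagy receptor, stood at 39.9, 54.2 and 59.7 CPM in the control libraries and 22.6, 23.9 and 22.7 CPM in the TAZ siRNA libraries, a change of -1.15 ± 0.17 (adjusted p = 0.00486). Pdk1, the kinase that closes the pyruvate dehydrogenase gate, stood at 132, 142 and 147 CPM in the control libraries and 85.1, 80.7 and 75.7 CPM in the TAZ siRNA libraries (-0.80 ± 0.084, adjusted p = 0.000251). Egln3, a HIF prolyl hydroxylase and itself a HIF target, stood at 20.1, 32.5 and 27.5 CPM in the control libraries and 11.8, 12.2 and 10.4 CPM in the TAZ siRNA libraries (-1.21 ± 0.24, adjusted p = 0.019). Groups were apart for all 3, which the naming rule required of Bnip3 and Egln3, and control replicate 1 was the lowest control in each. Egln3 lost its call in fits without control replicate 3 (0.0619) or TAZ siRNA replicates 2 (0.0676), 3 (0.08). Egln1 (-0.47 ± 0.06), Ndrg1 (-0.41 ± 0.061), Vegfa (-0.35 ± 0.069), the collagen prolyl hydroxylase P4ha2 (-0.44 ± 0.088) and the mTORC1 inhibitor Ddit4 (-0.26 ± 0.05) fell in every setting, while P4ha1 (-0.42 ± 0.088) lost its call in fits without control replicate 3 (0.061) or TAZ siRNA replicates 2 (0.0597), 3 (0.0645). Hif1a, the oxygen-regulated subunit, did not pass the test (-0.16 ± 0.05, adjusted p = 0.0739), nor did Epas1 (0.044 ± 0.068, adjusted p = 0.786), Adm (-0.93 ± 0.37) or Ankrd37 (-0.90 ± 0.26). Hif1a passed it with DESeq2 (0.0287) and without TAZ siRNA replicate 1 (0.002), and Ankrd37 with DESeq2 (0.0422) and without control replicate 1 (0.0118). The list members Car9 and Slc16a3 were too low to test. Car9 had 3, 0 and 7 counts in the control libraries and 10, 12 and 7 in the TAZ siRNA libraries. Slc16a3 had 11, 7 and 7 counts in the control libraries and 4, 1 and 4 in the TAZ siRNA libraries.

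**Figure D3:**
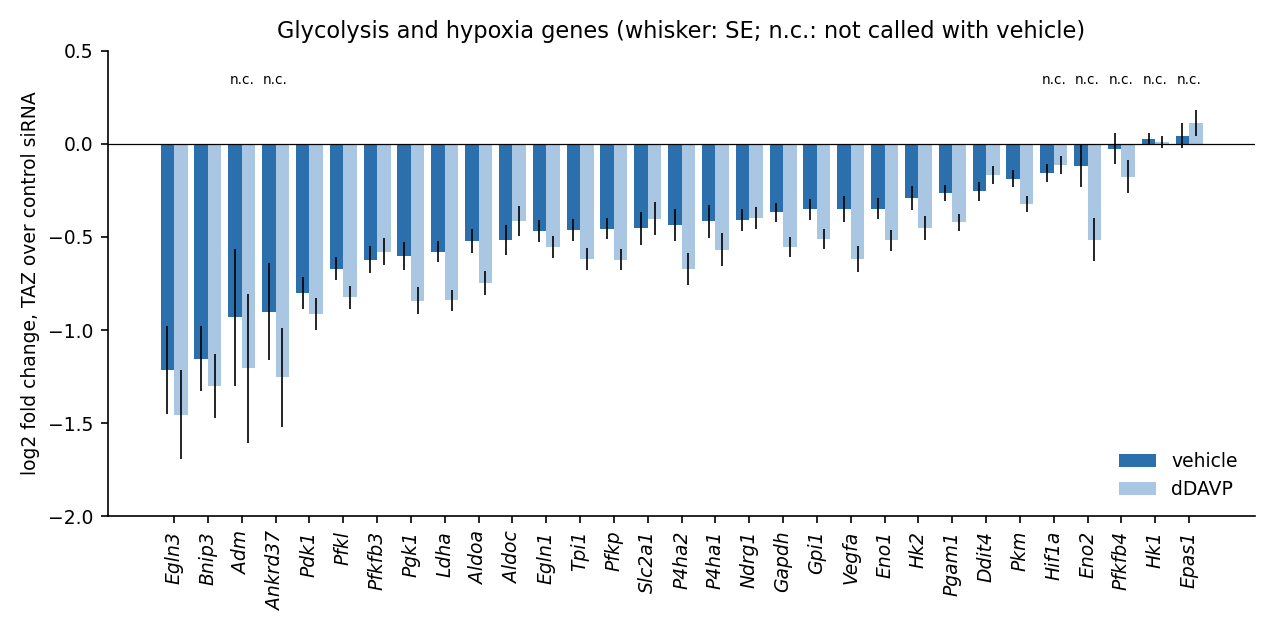
Log2 fold change of TAZ siRNA over control siRNA (vertical axis, whiskers SE) for the 31 glycolysis and hypoxia genes tested, dark bars with vehicle and light bars with dDAVP. With vehicle 24 bars are called, all below 0, and 7 are marked as not called; with dDAVP 26 are called, all below 0.

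ACGTG (or CACGT on the other strand) is 1 form of the core of the HIF binding motif and the only form searched. It was in the promoters of 17 of the 23 fallen members with a RefSeq entry (73.9%). The share was 28.2% among all tested genes with a promoter. ACGTG was in 32.6% of all genes that fell and 23.1% of all that rose. The list holds many known HIF targets, and the share among its members that did not fall was not counted. The motif holds a CpG, and whether its share differs with the base composition of promoters was not tested. The 250 bases before the start are printed for 3 members with a match and 1 without, motif in capitals; a palindromic match on both strands reads as CACGTG.
Egln3 (chr12:54203875-54204124, minus strand): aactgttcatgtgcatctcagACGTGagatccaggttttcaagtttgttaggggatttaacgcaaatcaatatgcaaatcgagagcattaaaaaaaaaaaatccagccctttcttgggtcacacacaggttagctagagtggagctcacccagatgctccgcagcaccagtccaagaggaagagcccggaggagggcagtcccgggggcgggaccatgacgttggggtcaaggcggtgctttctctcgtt
Bnip3 (chr7:138909507-138909756, minus strand): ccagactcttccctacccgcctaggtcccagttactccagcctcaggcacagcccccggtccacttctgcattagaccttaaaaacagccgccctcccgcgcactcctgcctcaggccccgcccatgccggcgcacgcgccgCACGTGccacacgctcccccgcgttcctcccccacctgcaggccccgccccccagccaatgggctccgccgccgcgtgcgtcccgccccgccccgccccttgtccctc
Ldha (chr7:46845554-46845803, plus strand): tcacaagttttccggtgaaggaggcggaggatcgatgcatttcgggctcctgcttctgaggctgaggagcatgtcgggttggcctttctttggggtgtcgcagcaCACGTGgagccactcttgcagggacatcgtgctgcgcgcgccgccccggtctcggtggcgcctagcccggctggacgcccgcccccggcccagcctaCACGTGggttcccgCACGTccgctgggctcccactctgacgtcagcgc
Pfkl (chr10:78009808-78010057, minus strand): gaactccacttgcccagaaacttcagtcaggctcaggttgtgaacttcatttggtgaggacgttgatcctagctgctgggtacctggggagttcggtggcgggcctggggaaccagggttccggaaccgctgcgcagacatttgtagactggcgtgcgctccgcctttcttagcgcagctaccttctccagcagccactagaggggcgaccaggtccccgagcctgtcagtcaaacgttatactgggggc
Ldha held 3 separate ACGTG matches and Egln3 and Bnip3 1 each, while Pfkl, which fell by more than Ldha, held none. The first start of Pdk1 also held no ACGTG, and other forms of the motif were not searched in either gene.

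Of 25 cholesterol genes tested, 14 rose and none fell, against 3.19% higher and 3.11% lower of all genes tested. The list's median log2 fold change was 0.156. In the synthesis route, Hsd17b7 stood at 28.3, 29.8 and 29.6 CPM in the control libraries and 34.6, 36.8 and 38.2 CPM in the TAZ siRNA libraries (0.32 ± 0.049, adjusted p = 0.000951). Idi1 (0.32 ± 0.054), Cyp51 (0.24 ± 0.038) and the sterol sensor Insig1 (0.24 ± 0.047) also rose; all 4 kept their call in every setting, and none of their groups overlapped. Srebf2, which encodes the sterol-responsive transcription factor SREBP-2, rose by 0.16 and lost its call in fits without TAZ siRNA replicates 2 (0.0675), 3 (0.0558). Leaving out control replicates 2 or 3 left 9 called each, and leaving out TAZ siRNA replicates 2 or 3 left 6 and 7, against 14. The sterol element TCACNCCAC was in the promoter of 1 of the 9 risen members with an entry (11.1%), against 1.45% of all genes with a promoter, and the first starts of Hsd17b7 and Idi1 held none. It was also in 2 of the 23 fallen glycolysis and hypoxia genes with an entry (8.7%). In turn, ACGTG was in 4 of the 9 risen cholesterol genes (44.4%), against 28.2% of all genes with a promoter. Neither motif was therefore particular to 1 list or to 1 direction.

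Fatty acid synthesis genes gave 3 rises and no fall among 14 tested, against 3.19% higher and 3.11% lower of all genes tested. Fasn, fatty acid synthase, went from 605, 613 and 608 to 667, 722 and 751 CPM (0.23 ± 0.038, adjusted p = 0.00151) and the NADPH-producing malic enzyme gene Me1 rose by 0.25. Acaca, acetyl-CoA carboxylase, rose by 0.18 and lost its call in the fit without TAZ siRNA replicate 2 (0.0528).

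Of 24 basement membrane and matrix genes tested, 8 rose and none fell (median 0.109), against 3.19% higher and 3.11% lower of all genes tested. Between 6 and 9 rose when any library was left out, with 1 fall without TAZ siRNA replicate 1. The laminin chain gene Lamb3 stood at 121, 125 and 126 CPM in the control libraries and 143, 149 and 157 CPM in the TAZ siRNA libraries (0.27 ± 0.039, adjusted p = 0.000616), without overlap. Lama3 (0.27 ± 0.054), Lamb2 (0.19 ± 0.039), Lama5 (0.17 ± 0.032) and the heparan sulfate proteoglycan perlecan (Hspg2, 0.19 ± 0.037) also rose in every setting. Col4a3, a basement membrane collagen chain, rose by 0.19 and lost its call in fits without control replicates 1 (0.0818), 2 (0.0716), 3 (0.089) or TAZ siRNA replicates 1 (0.108), 2 (0.109). The major collagen IV chain gene Col4a1 (0.042 ± 0.034) and fibronectin (Fn1, 0.14 ± 0.043, adjusted p = 0.0568) were not called, although Fn1 passed on library totals alone (0.0397), with DESeq2 (0.0214), with no low-count filter (0.0435), with a stricter low-count filter (0.045) and without control replicate 2 (0.0226).

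Among 36 integrin, focal adhesion and stress fibre genes, 9 rose and 3 fell (median 0.0605), against 3.19% higher and 3.11% lower of all genes tested. Itga3, a laminin-binding integrin subunit, went from 405, 404 and 414 to 459, 489 and 518 CPM (0.26 ± 0.036), and Itgb4, an integrin subunit of hemidesmosomes, rose by 0.23. Itga1 (0.38 ± 0.071), talin (Tln1, 0.20 ± 0.033), filamin A (Flna, 0.26 ± 0.051), Cnn2 (0.35 ± 0.062) and Tagln2 (0.23 ± 0.046) rose too, while Itgb6 (-0.20 ± 0.039) fell; all 8 kept their calls in every setting. Itga5 rose by 0.30 and lost its call in fits without control replicates 1 (0.0574), 3 (0.0821) or TAZ siRNA replicate 3 (0.102). Acta2, smooth muscle actin, was close to its detection limit, at 0, 0.149 and 0.12 CPM in the control libraries and 0.371, 0.244 and 0.468 CPM in the TAZ siRNA libraries, and lost its call in the fit of the 6 vehicle libraries (0.0724), the fit with no low-count filter (0.0547) and the fit with a replicate block (0.0615) and in fits without control replicates 1 (0.147), 2 (0.0533), 3 (0.0879) or TAZ siRNA replicates 1 (0.0755), 2 (0.0796), 3 (0.181). The abundant actin genes Actb (0.021 ± 0.054) and Actg1 (0.018 ± 0.047) were not called. Without control replicates 1 or 3 or TAZ siRNA replicates 2 or 3, the number lower was 1, 2, 1 and 1 in place of 3.

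Of 24 NF-kappaB, cytokine and complement genes, 8 rose and 2 fell (median 0.0727), against 3.19% higher and 3.11% lower of all genes tested. Cxcl5, a neutrophil-attracting chemokine, stood at 11.5, 13.7 and 11.4 CPM in the control libraries and 17.2, 27.1 and 20.6 CPM in the TAZ siRNA libraries (0.83 ± 0.13, adjusted p = 0.00202). Ccl20, which attracts cells that bear CCR6, stood at 1.17, 1.15 and 1.17 CPM in the control libraries and 1.87, 4.54 and 2.08 CPM in the TAZ siRNA libraries (1.28 ± 0.27, adjusted p = 0.00965). The groups did not overlap for either gene, which the naming rule required, and TAZ siRNA replicate 2 was the highest library for both. Cxcl16 stood at 22.2, 21 and 23 CPM in the control libraries and 28.6, 35.7 and 33.6 CPM in the TAZ siRNA libraries (0.56 ± 0.081, adjusted p = 0.000611). The interleukin-1 receptor antagonist Il1rn is not a member of the list and is not in its counts. It stood at 5.19, 4.61 and 5.24 CPM in the control libraries and 6.78, 12.3 and 8.65 CPM in the TAZ siRNA libraries (0.88 ± 0.16). Cxcl2, another neutrophil chemokine, rose by 0.76 and lost its call in fits without control replicate 3 (0.0542) or TAZ siRNA replicate 2 (0.0805). Ackr3, which scavenges CXCL12, stood at 13.3, 12.5 and 14.7 CPM in the control libraries and 6.79, 6.02 and 6.52 CPM in the TAZ siRNA libraries (-1.07 ± 0.095, adjusted p = 9.59e-06), the steepest fall of the list. The complement gene C3 (-0.017 ± 0.062) and Nfkb1 (0.024 ± 0.031) were not called. Without control replicates 1 or 3 or TAZ siRNA replicates 2 or 3, the rises numbered 5, 5, 3 and 4 in place of 8, and the falls 1 in place of 2 without control replicates 1 or 3 or TAZ siRNA replicates 1 or 3.

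**Figure D4:**
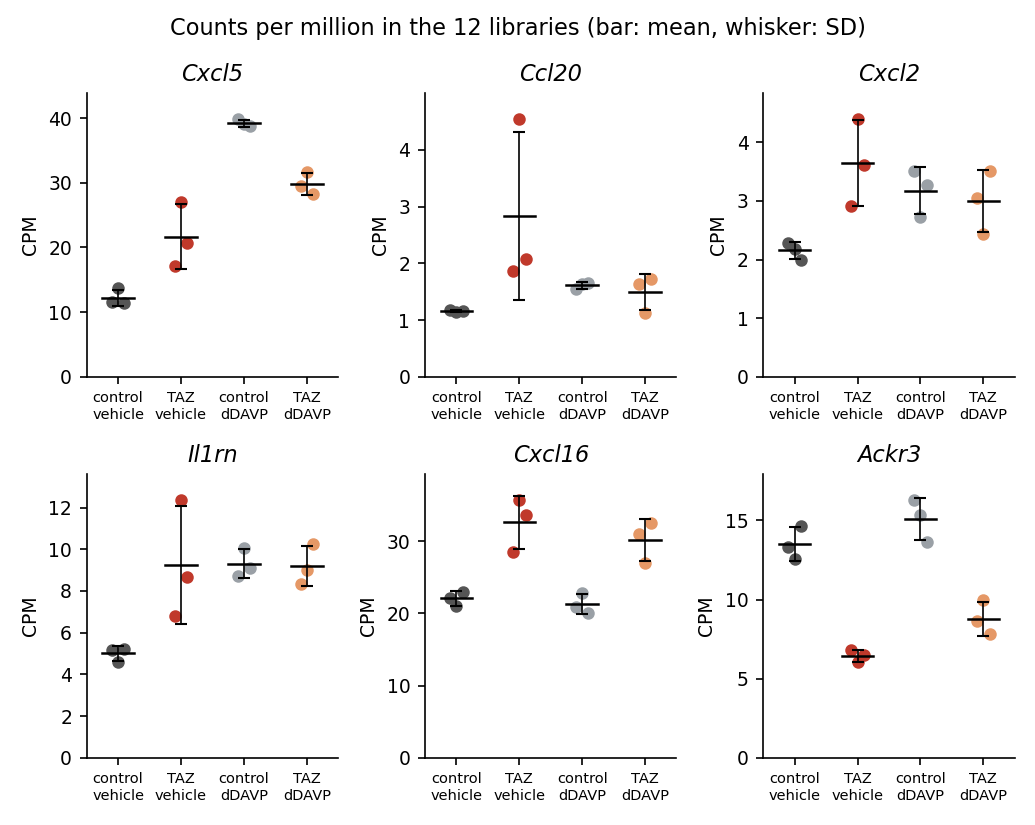
CPM (vertical axis, from 0) of 6 chemokine, cytokine and scavenger genes in all 12 libraries, by siRNA and treatment, with the mean as a bar and the SD as a whisker. With vehicle, Cxcl5, Ccl20, Cxcl2, Il1rn and Cxcl16 are higher and Ackr3 lower in each TAZ siRNA library; with dDAVP, Cxcl5 is lower in each TAZ siRNA library.

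Aquaporin-2 transcript was scarce without dDAVP. Aqp2 (chr15:99579056-99584545, mm10) had 19, 16 and 20 counts in the control libraries and 9, 0 and 0 in the TAZ siRNA libraries, 55 against 9 in all. The ratio of summed rates was 0.143 (exact 95% interval 0.0620 to 0.291, counting error only), and the groups did not overlap. The fitted log2 fold change of -2.75 ± 1.02 missed the threshold (adjusted p = 0.152), as it did in 12 of the 14 alternatives, while DESeq2 gave an adjusted p of 0.000148 and the fit of the 6 vehicle libraries 0.0486. All 9 counts came from TAZ siRNA replicate 1, and without that library the adjusted p was 0.0683. Aqp3, the basolateral water channel gene, was at 0.461, 0.616 and 0.464 CPM in the control libraries and 0.452, 0.602 and 0.307 CPM in the TAZ siRNA libraries and was not called.

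Of 20 principal cell transport genes tested, 1 rose and 1 fell (median -0.110), against 3.19% higher and 3.11% lower of all genes tested. Avpr2, the V2 vasopressin receptor gene, stood at 29.8, 27.2 and 31.7 CPM in the control libraries and 24.9, 20.9 and 25.8 CPM in the TAZ siRNA libraries. Its change of -0.31 ± 0.074 (adjusted p = 0.0183) lost its call in fits without control replicates 1 (0.0683), 3 (0.0919) or TAZ siRNA replicate 2 (0.105). The potassium channel gene Kcnj16 rose by 0.45 in every setting. Scnn1a (0.098 ± 0.031, adjusted p = 0.0728) and Scnn1g (-0.55 ± 0.16, adjusted p = 0.0596) were not called. Scnn1a passed the threshold on library totals alone (0.044) and with DESeq2 (0.0425), and Scnn1g with DESeq2 (0.0118), without control replicate 2 (0.0221) and without TAZ siRNA replicate 1 (0.0102). The falls of the list numbered 6 without TAZ siRNA replicate 1 and with DESeq2, 3 without control replicate 2, and 0 without control replicates 1 or 3 or TAZ siRNA replicate 2.

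Among 25 transcription factors tied to Aqp2 or to collecting duct identity, 1 rose and 3 fell, and Jun was the fall that held in every setting. The shares over all genes tested were 3.19% higher and 3.11% lower. Gata3 (-0.18 ± 0.053, adjusted p = 0.0592), Elf3 (-0.12 ± 0.038, adjusted p = 0.0706) and Nfat5 (0.012 ± 0.052, adjusted p = 0.934) were not called. Gata3 passed the threshold with DESeq2 (0.0182), with a stricter low-count filter (0.0484) and without TAZ siRNA replicate 1 (0.00284), and Elf3 with DESeq2 (0.0287), without control replicate 2 (0.0447) and without TAZ siRNA replicate 1 (0.0252). The falls numbered 7 without TAZ siRNA replicate 1 and 9 with DESeq2, and the rise was lost without any 1 of the other 5 libraries. Of 33 genes of AQP2 trafficking and cAMP signalling, 1 rose and none fell, against the same shares over all genes tested. In that list 4 fell without TAZ siRNA replicate 1 and with DESeq2, and the rise was lost without control replicates 1 or 2 or TAZ siRNA replicates 2 or 3.

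Intercalated cell and other nephron markers were also measured. Among 8 intercalated cell markers tested, 2 fell and 1 rose, against 3.11% lower and 3.19% higher of all genes tested. Aqp6, an intracellular anion-permeable aquaporin, stood at 17.2, 17.2 and 18 CPM in the control libraries and 13.5, 8.87 and 10.5 CPM in the TAZ siRNA libraries (-0.67 ± 0.11, adjusted p = 0.0026), and the ammonia transporter Rhcg at 30.4, 24.2 and 28.6 CPM in the control libraries and 22.9, 16.8 and 19.2 CPM in the TAZ siRNA libraries (-0.50 ± 0.099). Neither gene's groups overlapped, and 6 of the 15 markers were at 0 in every vehicle library. The summed level of the list ran from 202.5 to 222.6 CPM in the controls and from 183.8 to 205.6 CPM with TAZ siRNA, so these ranges overlapped. Car12, a membrane carbonic anhydrase and the 1 rise, rose by 0.30 but lost its call in fits without control replicate 2 (0.071) or TAZ siRNA replicate 2 (0.114). Of the other segments' markers, the endocytic receptor Lrp2 fell from 182, 189 and 179 to 153, 143 and 138 CPM (-0.34 ± 0.047) and podocalyxin (Podxl) rose by 0.25, both in every setting. A second rise among these markers appeared without control replicate 1. In bulk RNA, fewer cells of a type and less RNA per cell cannot be told apart.

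In the remaining lists, counts of calls can be read against the 3.19% higher and 3.11% lower of all genes tested. The members named in this paragraph kept their call in all 14 settings, and the rest are counted. DNA replication and S phase genes had 6 falls and no rise among 28, which became 2, 1, 1 and 3 without control replicates 1 or 3 or TAZ siRNA replicates 2 or 3, and 2 in the fit of the 6 vehicle libraries; 1 rose without TAZ siRNA replicate 1. Mitosis and G2/M genes had 1 rise among 28, lost without control replicate 1 or TAZ siRNA replicates 2 or 3, and 1 fall without TAZ siRNA replicate 1. The p53 targets had 6 rises and no fall among 22 (median 0.123), which became 2 without any 1 of control replicates 1, 2 or 3 or TAZ siRNA replicate 2, and 0 without TAZ siRNA replicate 3. Amino acid transporters had 4 rises among 14, and 1, 2, 1, 0 and 1 without control replicates 1, 2 or 3 or TAZ siRNA replicates 2 or 3. EGF family and ERK feedback genes had 4 rises among 26, and 0, 2, 1, 0 and 1 without the same libraries, but 7 without TAZ siRNA replicate 1. WNT genes had 2 rises, including Wnt10a (0.49 ± 0.075), and 4 falls among 19; the falls became 1 without control replicates 1, 2 or 3 and 0 without TAZ siRNA replicates 2 or 3, and the rises 1 without control replicate 1 or TAZ siRNA replicates 2 or 3.

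TGF-beta genes had 2 falls among 26, Tgfb3 (-0.59 ± 0.073) and Bmp7 (-0.21 ± 0.038), and 5 falls with 2 rises without TAZ siRNA replicate 1. NRF2 and glutathione genes had 2 rises among 22, Nqo1 (0.46 ± 0.068) and Prdx1 (0.29 ± 0.045), and 1 fall without TAZ siRNA replicate 1. These 4 genes kept their calls in all 14 settings. Stress response genes had 2 rises, including Atf3 (0.65 ± 0.098), which kept its call in every setting, and 1 fall among 24. Their rises became 1 without control replicate 2 or TAZ siRNA replicates 2 or 3 and 4 without TAZ siRNA replicate 1, and their fall 0 without control replicates 1 or 3 or TAZ siRNA replicate 2 and 2 without control replicate 2 or TAZ siRNA replicate 1. Junction and keratin genes had 1 rise and 1 fall among 30, the fall being the tight junction gene Cldn8 (-0.48 ± 0.094), which held in every setting; the rise was lost without control replicates 1 or 2 or TAZ siRNA replicates 2 or 3, without TAZ siRNA replicate 1 there were 3 rises and 2 falls, and without TAZ siRNA replicate 3 there were 2 falls.

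Ciliary and cystic kidney genes had 2 falls among 25, and neither Pkd1 (0.12 ± 0.041) nor Pkd2 (-0.095 ± 0.038) was called; the falls became 0 without control replicate 2 or TAZ siRNA replicate 3 and 1 without TAZ siRNA replicate 2. Nuclear-encoded oxidative phosphorylation genes had 3 rises among 25, which became 1, 1, 0 and 0 without control replicates 1 or 3 or TAZ siRNA replicates 2 or 3. Ribosomal protein genes had 1 rise among 30, which became 6 without TAZ siRNA replicate 1 and 0 without control replicates 1 or 2 or TAZ siRNA replicates 2 or 3, and 1 fell without TAZ siRNA replicate 3. Interferon-stimulated genes had 1 rise among 27, lost without any 1 library other than TAZ siRNA replicate 1, without which 1 fell. Notch genes had 1 fall among 19, which became 3 without TAZ siRNA replicate 1 and 0 without control replicates 1 or 2 or TAZ siRNA replicates 2 or 3. With edgeR, none of 11 epithelial-mesenchymal transition genes was called, while 3 had an unadjusted p under 0.05, DESeq2 called 2, limma-voom none, and 1 rose without control replicate 2. None of 6 fibroblast, endothelial and immune markers was called with edgeR, DESeq2 or limma-voom, 1 had an unadjusted p under 0.05, and 1 rose without control replicate 2. Over all lists, 185 recomputed counts of called members moved by more than 1.5 times under an alternative setting and 655 did not.

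The dDAVP libraries gave a separate estimate of the TAZ siRNA effect that shares no library with the first, although all 12 enter the same fit. With dDAVP, 5.77% of the genes tested were higher and 4.97% lower with TAZ siRNA, 1711 genes in all. Of the 1004 genes called with vehicle, 944 (94.0%) had the same sign with dDAVP, against 66.8% of all genes tested. Calls in the same direction numbered 581, which is 57.9% of the vehicle calls and 34.0% of the dDAVP calls. Among glycolysis and hypoxia genes, 26 of 31 fell with dDAVP (median -0.555), with Pfkl at -0.82 ± 0.062, Ldha at -0.84 ± 0.055 and Bnip3 at -1.30 ± 0.17. Matrix genes gave 13 rises among 24 and cholesterol genes 6 among 25. Not every list kept its balance of calls. S phase genes had no rise and 6 falls with vehicle, but 2 rises and 1 fall with dDAVP. Transcription factors had 1 rise and 3 falls, then 6 rises and 1 fall. NRF2 genes had 2 rises and no fall, then 1 rise and 5 falls. Oxidative phosphorylation genes had 3 rises and no fall, then no rise and 1 fall. Cytokine genes had 8 rises and 2 falls, then 5 rises and 4 falls. Wwtr1 itself changed by -0.54 ± 0.05 with dDAVP (adjusted p = 5.55e-06), and Aqp2 by -1.66 ± 0.21 (adjusted p = 0.000555).

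**Figure D5:**
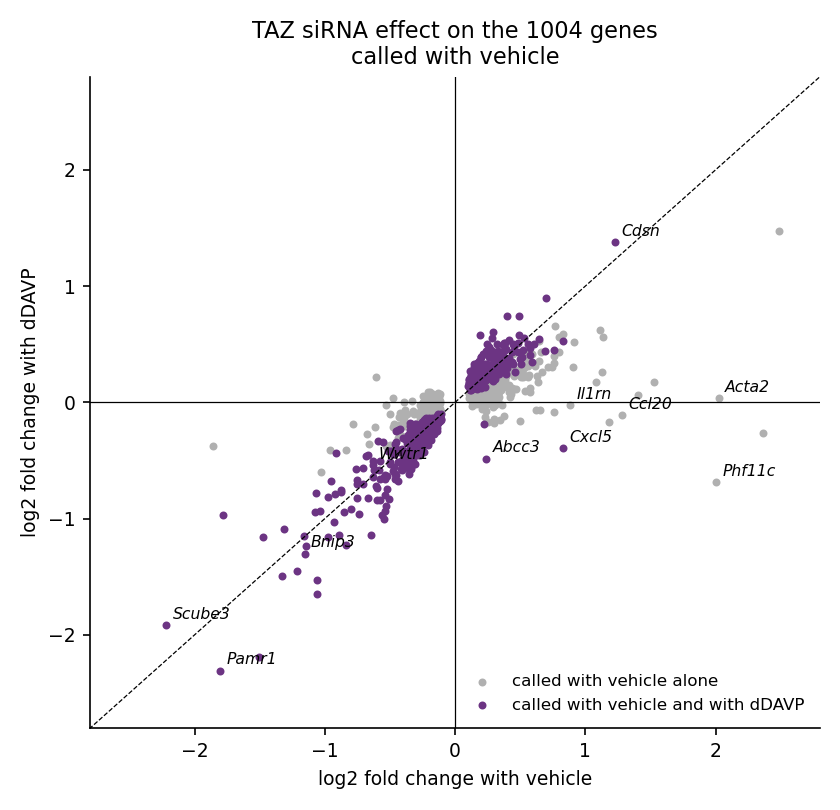
Log2 fold change of TAZ siRNA over control siRNA with dDAVP (vertical axis) against that with vehicle (horizontal axis), 1 point per gene, for 997 of the 1004 genes called with vehicle (7 lie outside the axes, which end at 2.8 in each direction); the dashed line marks equal changes. Purple points were called in both treatments, and 944 of the 1004 genes have the same sign in both, with Cxcl5, Abcc3 and Phf11c among the exceptions.

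A test of the difference between the effects called 5 genes (0.0314% of those tested). Cxcl5 rose with vehicle and was lower with dDAVP, where it stood at 39.8, 39 and 38.8 CPM with control siRNA and 29.5, 31.6 and 28.3 CPM with TAZ siRNA. The difference was -1.23 (adjusted p = 0.032), and it lost its call without control replicates 1 (0.0526) or 3 (0.124) or TAZ siRNA replicate 3 (0.0590). The other 4 fall outside the naming rule and were named after their values were seen. Slc39a4, a zinc importer, differed by -0.53, Abcc3, an organic anion exporter, by -0.72 and Col4a4, a collagen IV chain, by 0.41 (adjusted p = 0.0037 for each), in every setting in which an adjusted p was given. Col4a1 differed by 0.29 (adjusted p = 0.044) and lost its call with RLE size factors (0.0558), with the replicate number in the fit (0.0631), and without control replicates 2 (0.107) or 3 (0.124) or TAZ siRNA replicates 2 (0.152) or 3 (0.0769). Of these 5, Cxcl5 and Abcc3 were also called with vehicle, where Abcc3 changed by 0.24 ± 0.068 and lost its call in the fit of the 6 vehicle libraries (0.0951) and limma-voom (0.08) and in fits without control replicates 1 (0.154), 2 (0.0912), 3 (0.0771) or TAZ siRNA replicates 2 (0.19), 3 (0.108). Ccl20 and Il1rn, which rose with vehicle, had values of -0.11 ± 0.28 and -0.021 ± 0.16 with dDAVP (adjusted p = 0.862 and 0.955), and their differences were not called.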

How the data were processed

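Messenger RNA was sequenced in 12 libraries, of which the 6 with vehicle are compared here. The authors deposited estimated counts per gene, not normalised and written as whole numbers, per the file headers and the values, so no rounding was needed. They also deposited TPM values, per the file headers, which carry length and library scaling and were not tested. The tables hold 36 more per-sample columns, left unused. The submitters' processing notes name Bowtie 0.12.2, mm8 and mm10 without roles. The counting tool, its use of strand and its handling of shared reads are not given in the sources used here. Genes with near-identical copies, overlapping genes and antisense pairs are therefore uncertain. The labels' protocols name 2 TruSeq kits, stranded and not specified.

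The analysis used edgeR 4.0.16 in R 4.3.3: TMM factors, filterByExpr with a minimum count of 10, 4 group means over all 12 libraries, and the robust quasi-likelihood F test with Benjamini-Hochberg adjustment over 15932 genes. The biological coefficient of variation was 5.11%. A standard error is the size of the log2 fold change over the square root of F. Alternatives used limma 3.58.1 (voom), DESeq2 1.42.0, other scaling and filters, a replicate block, and each vehicle library left out. Replicate libraries all differed by more than sampling noise.

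Genes were named by rule: a set named always, the 15 largest called changes in each direction at 1 CPM or more without overlap, the 8 smallest adjusted p-values in each direction at 50 CPM or more, and up to 4 called members of each list by size. Symbols of predicted genes, Rik and LOC clones, and Mir and Snor genes were passed over, and some genes that the rule names are not reported here. Further list members were named after their values were seen, among them all called glycolysis genes, and in short lists those that kept their call. The members and all 30 lists were chosen with earlier results of these data known. Motif searches covered 3 motifs, and the promoters printed were chosen with their matches known. Promoter sequences are from RefSeq, GRCm38.p6, which held an entry for 11340 of the genes tested. Gene coordinates are those of the deposited transcript table (mm10).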

Additional observations from a re-analysis of the deposited data

Results flagged for a closer look

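A set of 5 genes stood out because the effect of the TAZ siRNA differed between dDAVP and vehicle in a direct test. The difference of the log2 fold changes, dDAVP minus vehicle, was -1.23 for Cxcl5, -0.72 for Abcc3, -0.53 for Slc39a4, 0.29 for Col4a1 and 0.41 for Col4a4. Slc39a4 stood at 26.3, 28.0 and 28.1 CPM with control siRNA and 29.0, 31.6 and 29.8 CPM with TAZ siRNA in vehicle, and Col4a4 at 284, 288 and 271 CPM and 306, 294 and 279 CPM. Neither gene was called with vehicle.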

How the results depend on the processing

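With each vehicle library left out in turn, the genes called higher ran from 183 to 616 and those called lower from 227 to 819, and the genes whose effect differed between treatments from 3 to 16. Risen cytokine genes ran from 3 to 9 and risen cholesterol genes from 6 to 15. DESeq2 called 751 genes lower in place of 496. The count for the difference was 5, and became 8 on library totals alone, 87 with DESeq2, 12 without a low-count filter and 20 with a stricter filter (at least 1 CPM in 3 libraries). Among lists, DESeq2 gave 2 rises of principal cell transport genes, 5 of fatty acid synthesis genes and 3 of ribosomal protein genes, 4 falls of TGF-beta genes and 3 each of Notch and junction genes; the fit of the 6 vehicle libraries gave 1 rise each of amino acid transporters and EGF family genes and no fall of stress or Notch genes; the stricter filter gave 6 falls of transcription factors. Why these counts moved was not tested. In all 14 settings Wwtr1 fell (-0.66 to -0.61), and 20 to 26 glycolysis and hypoxia genes fell. Of 174 called genes named or listed, 88 kept their call in every setting that gave them an adjusted p.

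Genes near zero turned sign. Without 1 library, Taz ran from -0.061 to 0.047, Yap1 from -0.027 to 0.0089, Ccn1 from -0.099 to 0.10, Ccn2 from -0.051 to 0.057, Aqp3 from -0.43 to 0.042, Nfat5 from -0.029 to 0.042, Actb from -0.039 to 0.080, Actg1 from -0.044 to 0.065, C3 from -0.087 to 0.020, Epas1 from -0.016 to 0.081 and Pfkfb4 from -0.10 to 0.027. On library totals alone Yap1 was at 0.0045 and Ccn1 at 4.34e-05. The Notch median ran from -0.030 to 0.035, and the median of other nephron segment markers from -0.0074 to 0.25, or -0.049 under the stricter filter.

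With the replicate block in the fit, 479 genes were higher, 489 lower and 6 differed between treatments. It called Gata3 (0.0429), Fn1 (0.0377), Hif1a (0.0431), Scnn1g (0.0408) and Ankrd37 (0.00419), gave 4 falls among principal cell transport genes, 5 falls and no rise among transcription factors, 2 rises and 2 falls in the AQP2 trafficking list, and no fall among Notch genes. Same-numbered libraries of the 2 vehicle groups had correlated deviations of 0.133, -0.00853 and 0.204. Control replicates 1 and 3 correlated best with their own number and control replicate 2 with TAZ siRNA replicate 1 (0.109), so the numbers were not taken as pairs.

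Depth limits low genes: a count of 3 was about 0.05 CPM, and Aqp2 lay near it with TAZ siRNA.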
